A study of Arabidopsis thaliana with 6 samples.

Results

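Light-harvesting chlorophyll proteins and the small subunits of the photosystems are made in the cytosol from nuclear genes and imported into the chloroplast. This account follows 49 such nuclear loci of Arabidopsis thaliana across 6 transgenic lines. The loci were chosen by their known function, with earlier results of these data known. Every array feature carrying 1 of their locus identifiers was taken. They hold 59 of the 37118 features and 49 of the 32627 loci on each array. By role they comprise 9 genes of the major light-harvesting complex of photosystem II (LHCII), 6 minor LHCB genes, 6 LHCA genes, 7 LHC-like genes, 12 photosystem I subunit genes and 9 photosystem II subunit genes. For the 8 loci that had more than 1 feature, the values are those of the feature whose mean signal was highest, and the other 41 had a single feature.

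The lines PAR18-2, PAR9-2 and PAR36-4, the MYBPAR group (n = 3), carried 35S::VvMYBPAR, a grapevine MYB transcription factor gene under the cauliflower mosaic virus 35S promoter, which is active in most plant tissues. The lines Cont1-1, Cont2-3 and Cont5-1, the empty vector group (n = 3), carried the vector alone. All were ecotype Columbia and were selected on agar with 30 mg/l kanamycin, so every line had also gone through transformation and antibiotic selection. Plants were grown with 16 h of light a day at 80 µmol m-2 s-1, 22 °C and 60% humidity. Whole plants were harvested at 3 weeks, and the time of day of the harvest is not given in the sources used here. Total RNA of each line was hybridised to 1 single-colour (Cy3) array, so a line, its culture, its harvest and its array cannot be told apart. In RNA from whole plants, fewer green cells and less RNA per green cell cannot be told apart either.

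In the thylakoid membrane, LHCII trimers built from LHCB1, LHCB2 and LHCB3 proteins collect light for photosystem II. The minor proteins LHCB4, LHCB5 and LHCB6 connect these trimers to the photosystem II core, and LHCA proteins form the antenna of photosystem I. Transcripts of many LHCB genes depend on light and chloroplast state and cycle over the day under the circadian clock, with GOLDEN2-LIKE (GLK) transcription factors among their activators.

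The arrays were alike as a whole. Their median intensities lay between 859 and 887, and Pearson's r between arrays over all features lay between 0.984 and 0.993. The signals of 31 of the 49 loci were in the top 1% of loci on the array, and the highest value on any array was 15.65 on the log2 scale. Signals of different probes are not set against each other as transcript levels. Line PAR9-2 stood apart from the other 5 lines for several of the light-harvesting genes and for circadian clock genes, so results are given with and without it.

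**Figure D1:**
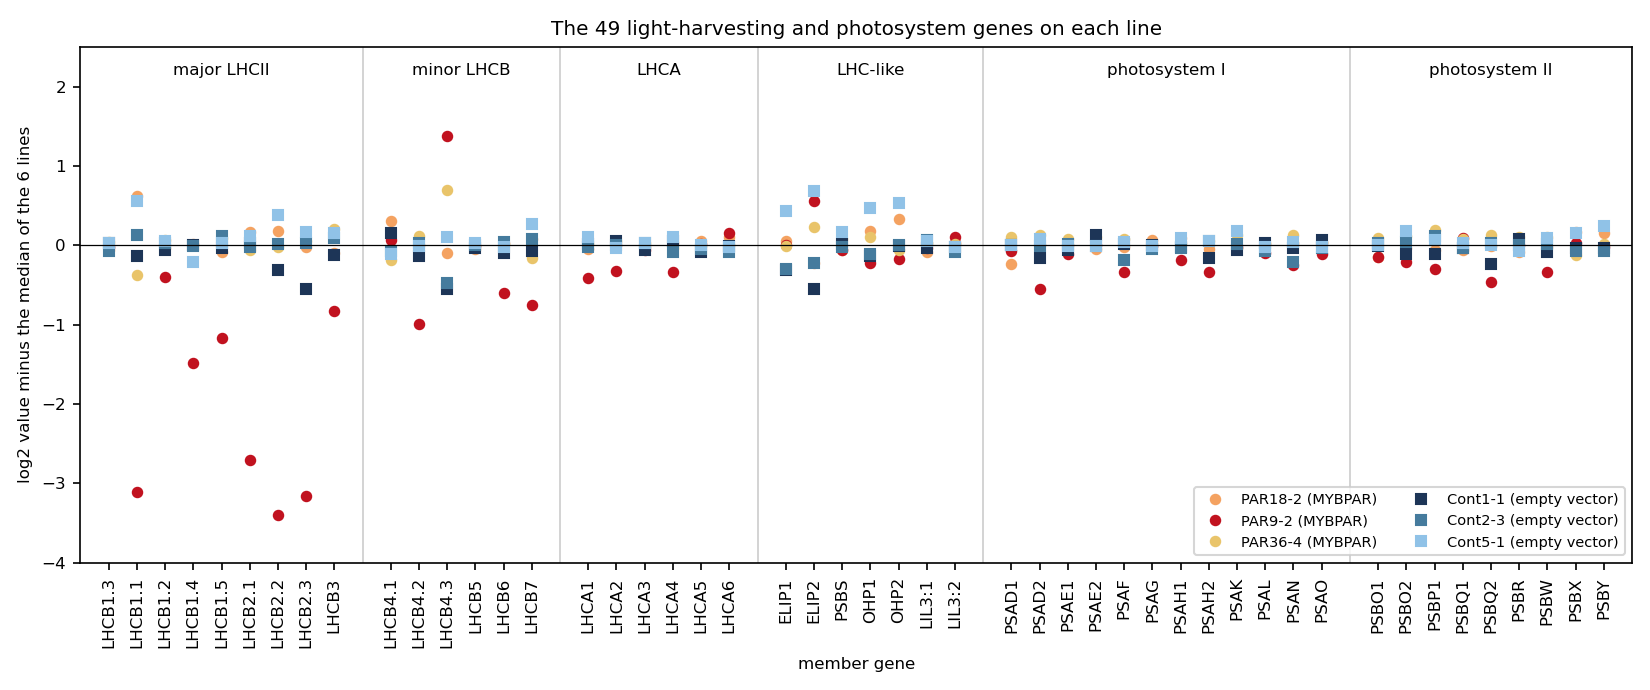
Log2 value of each of the 49 genes on each line minus the median of the 6 lines (y axis), with genes grouped by role along the x axis, circles for MYBPAR lines and squares for empty vector lines. Line PAR9-2 (dark red) lies far below the rest for most major LHCII genes and above them for LHCB4.3, while each photosystem subunit gene has a range of at most 0.67 over the 6 lines.

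The first question was whether the 3 MYBPAR lines differed as a group from the 3 empty vector lines. None of the 49 loci passed an adjusted p of 0.05 in either direction in limma with Benjamini-Hochberg adjustment over all 37118 features. Over all features, 0.00539% were called higher and 0% were called lower. Without adjustment and by the brightest feature of each locus, LHCB4.3 was the 1 gene higher at p under 0.05 and 0 were lower. Of all features, 2.41% were higher and 1.91% lower. The dim second feature of PSBS, not counted here, was also higher, at an unadjusted p of 0.0223 in limma. The lowest adjusted p of any of these genes was 0.915. The median log2 difference, MYBPAR minus empty vector, was -0.05 over the 49 loci, with 14 above 0 and 35 below, and 0.017 over all features. Without PAR9-2 the median was 0.03, with 34 loci above 0. By the brightest features, 0 of these genes then passed the adjusted threshold or an unadjusted p under 0.05. Of all features, 1.4% were higher and 0.924% lower without adjustment in that comparison.

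Most of these genes lay close to their empty vector level. The difference was within 0.2 of 0 for 38 of 49 loci on all lines and for 48 of 49 when PAR9-2 was left out. The exception in the second set was LHCB4.3. The groups did not overlap for 2 loci, LHCA6 and LIL3:2, both higher in the MYBPAR lines, where 6.36% of all loci were higher without overlap. None were lower without overlap, against 3.72% of all loci.

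**Figure D2:**
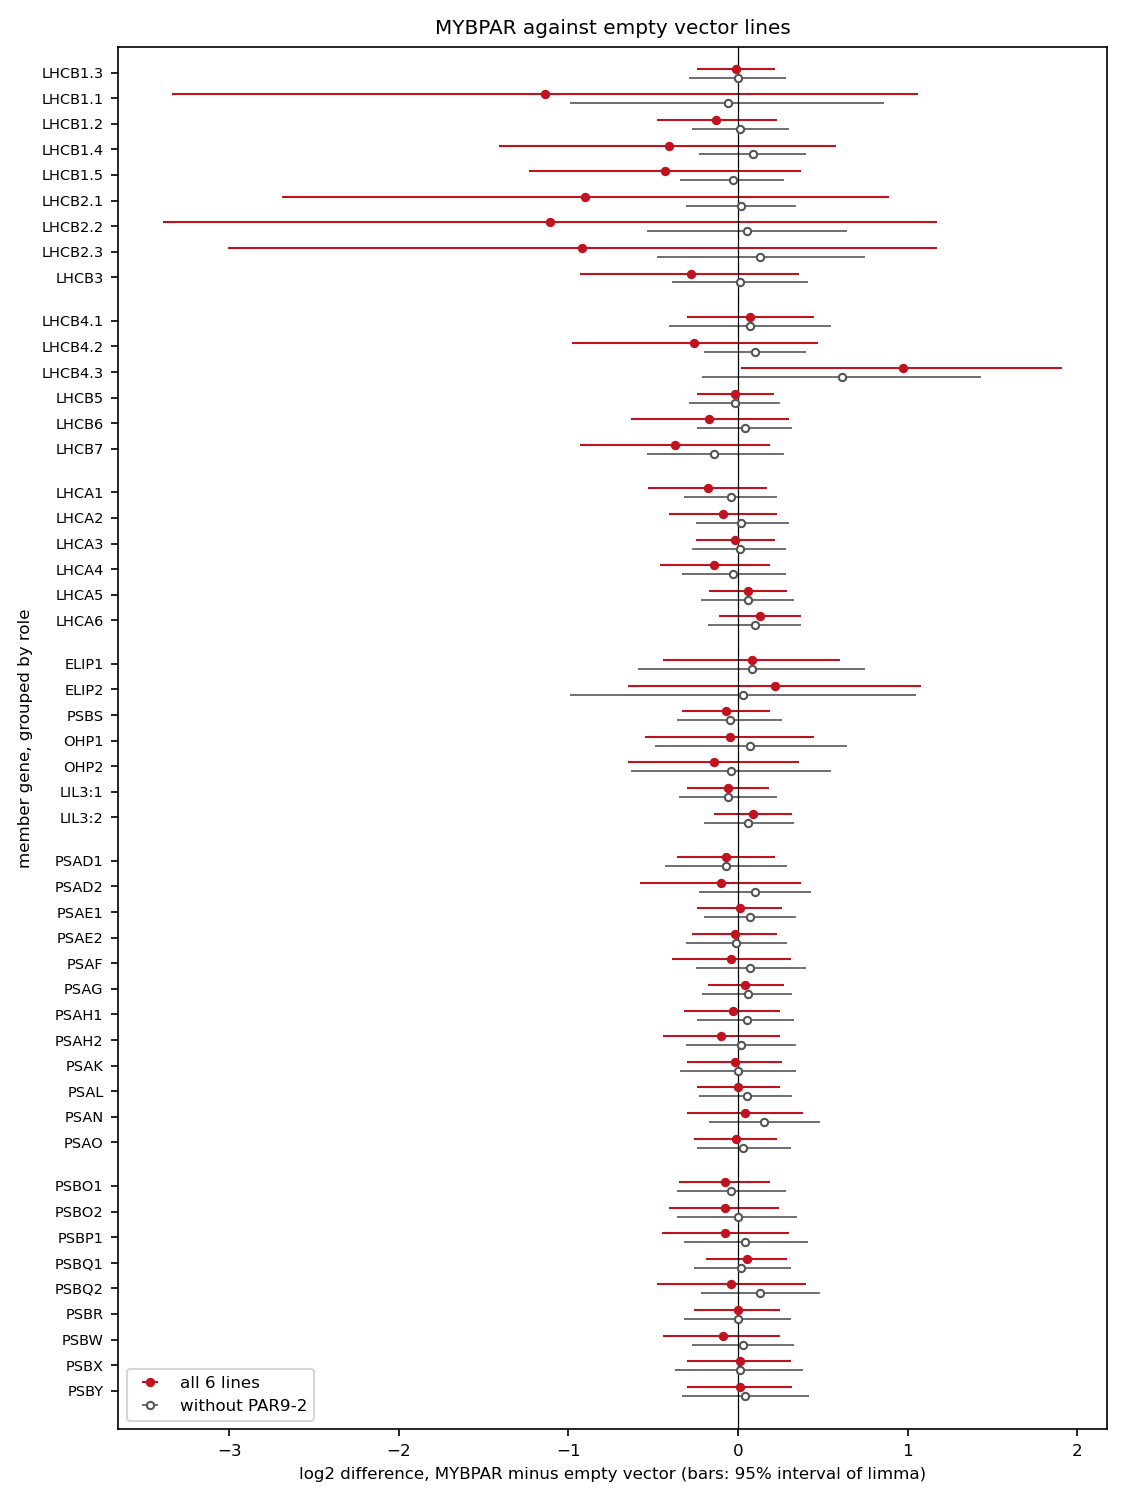
Log2 difference, MYBPAR minus empty vector (x axis), with the 95% interval of the limma fit for each gene (y axis, grouped by role), over all 6 lines (filled) and without PAR9-2 (open). LHCB1.1 and the LHCB2 genes have estimates near -1 with wide intervals that include 0, and estimates between -0.06 and 0.13 with narrower intervals when PAR9-2 is left out.

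The second question concerned single lines. Each line was set against the median of the other 5, and a distance over 1 on the log2 scale, a 2-fold difference, was counted. With 1 array per line these are descriptions with no test, and PAR9-2 was known from earlier results of these data to stand apart. In PAR9-2, 7 of 49 loci lay more than 1 below the other lines, or 14.3%, where 2.27% of all loci did. They were LHCB1.1, LHCB1.4, LHCB1.5, LHCB2.1, LHCB2.2, LHCB2.3 and LHCB4.2. The nearest to the limit were LHCB4.2, just inside at -1.01, and LHCB3, just outside at -0.92. Only LHCB4.3 lay more than 1 above, where 1.81% of all loci did. PAR9-2 had the lowest value of the 6 lines for 30 of 49 loci, or 61.2%, against 21.4% of all loci, and the highest for 4, or 8.16%, against 23.5%. At a distance of 0.5 the count below was 11 of 49 (9.95% of all loci), and at a distance of 2 it was 4 (0.282%).

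None of the other 5 lines had any of the 49 loci more than 1 from the rest. Of all loci, 1.56% lay that far below and 0.441% that far above in PAR18-2, 1.53% below and 1.49% above in PAR36-4, and 2.73% below and 1.31% above in Cont1-1. In Cont2-3 the shares were 0.475% below and 1.05% above, and in Cont5-1 they were 0.999% below and 1.13% above. The median deviation over the 49 loci was -0.18 in PAR9-2 and between -0.07 and 0.08 in the others. Over all loci the median deviation in PAR9-2 was 0.01, a value that normalization between arrays would hold near 0.

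The major LHCII genes showed the widest differences between lines. LHCB1 is a family of 5 genes in 2 clusters. LHCB1.3, LHCB1.1 and LHCB1.2 (also called CAB1, CAB2 and CAB3) are neighbours on the chromosome with 0 other protein-coding genes between adjacent members, as are LHCB1.4 and LHCB1.5, by the order of genes in RefSeq's TAIR10.1 annotation. These copies are very similar, the probe sequences are not among the sources used here, and signal shared between copies cannot be separated.

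LHCB1.1 (AT1G29920) had a log2 value of 6.61 in PAR9-2, against 10.35 in PAR18-2, 9.35 in PAR36-4 and 9.59, 9.86 and 10.29 in the empty vector lines. The PAR9-2 value was the only one of all 294 values of these genes below 7.08, where the density of signals has its trough between dim and bright features. Taken against that trough, LHCB1.1 was at least 6.84-fold lower in PAR9-2 than the median of the other lines. PAR18-2 had the highest value of the 6 lines and PAR36-4 lay below every empty vector line, so the groups overlapped. The group means were 8.77 ± 1.93 in MYBPAR and 9.91 ± 0.35 in empty vector lines (SD, n = 3 each), a difference of -1.14 with an SE of 0.91 and an adjusted p of 0.915 in limma.

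LHCB1.3 (AT1G29930), its immediate neighbour, was nearly level on all lines. It had log2 values of 14.67, 14.70 and 14.77 in PAR18-2, PAR9-2 and PAR36-4, against 14.76, 14.65 and 14.75 in Cont1-1, Cont2-3 and Cont5-1. Its range over the 6 lines was 0.11, the smallest of the major LHCII genes. LHCB1.2, on the other side of LHCB1.1, lay in between, 0.43 below the other lines in PAR9-2.

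LHCB1.4 (AT2G34430) had a log2 value of 13.12 in PAR9-2, against 14.62 in PAR18-2, 14.61 in PAR36-4 and 14.61, 14.59 and 14.39 in the empty vector lines. This was 2.82-fold lower in PAR9-2 than the median of the others. LHCB1.5 (AT2G34420) had 13.85 in PAR9-2, against 14.94 in PAR18-2, 15.11 in PAR36-4 and 14.99, 15.14 and 15.05 in the empty vector lines, 2.31-fold lower in PAR9-2. For both neighbours the other 5 lines lay close together, with ranges of 0.23 and 0.20, and PAR9-2 was clear of them.

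The LHCB2 genes, whose proteins are phosphorylated when LHCII moves between the photosystems, were all lower in PAR9-2 than in the other lines. As for LHCB1, signal shared between the copies cannot be separated. LHCB2.1 (AT2G05100) had 10.77 in PAR9-2, against 13.64 in PAR18-2, 13.42 in PAR36-4 and 13.50, 13.45 and 13.59 in the empty vector lines, 6.61-fold lower. Its neighbour LHCB2.2 (AT2G05070) had 8.63 in PAR9-2, against 12.20 in PAR18-2, 12.01 in PAR36-4 and 11.71, 12.04 and 12.41 in the empty vector lines, 10.6-fold lower. LHCB2.3 (AT3G27690), which lies on another chromosome, had 11.56 in PAR9-2, against 14.69 in PAR18-2, 14.77 in PAR36-4 and 14.16, 14.74 and 14.88 in the empty vector lines, 9.07-fold lower. For all 3 the values of PAR18-2 and PAR36-4 lay within or near the range of the empty vector lines, and the group difference without PAR9-2 was 0.02 for LHCB2.1, 0.05 for LHCB2.2 and 0.13 for LHCB2.3. With all lines it was -0.90, -1.11 and -0.92 in the same order, with SEs of 0.74, 0.94 and 0.86 and adjusted p between 0.915 and 0.917 in limma.

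LHCB3 (AT5G54270), the single gene of the third LHCII protein, had 14.00 in PAR9-2, against 14.73 in PAR18-2, 15.03 in PAR36-4 and 14.70, 14.92 and 14.98 in the empty vector lines. Across the 9 major LHCII genes, 6 lay more than 1 below the other lines in PAR9-2, 8 had their lowest value there, and the median deviation was -1.50. The group difference was below 0 for 9 of 9 of these genes with a median of -0.43, and without PAR9-2 the median was 0.01 with a range from -0.06 to 0.13, and 6 of 9 were above 0.

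**Figure D3:**
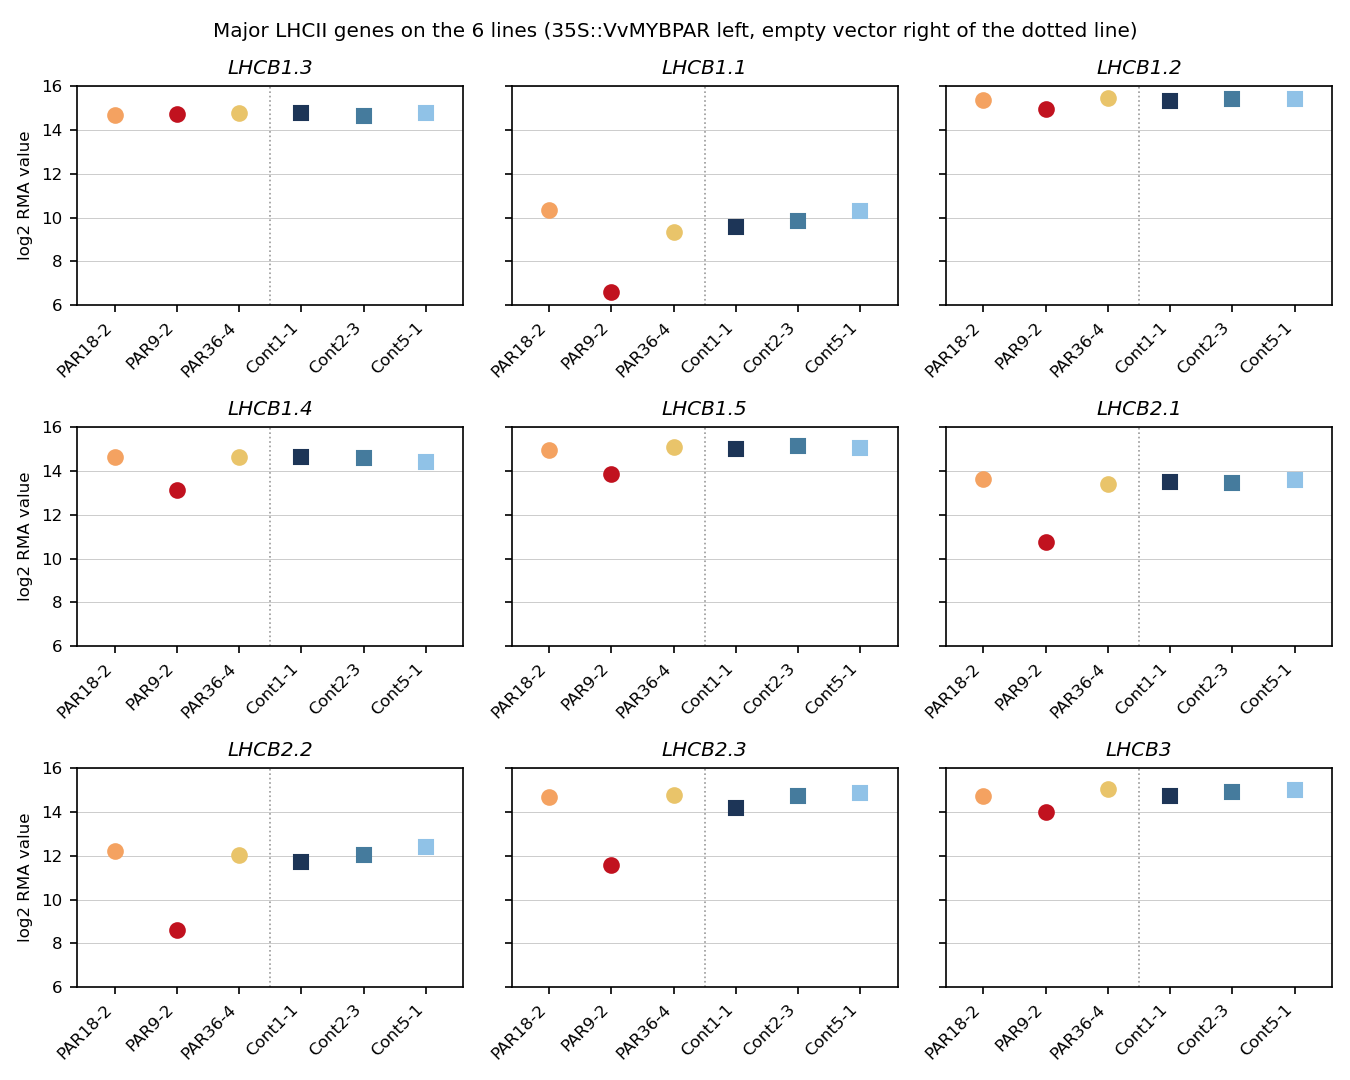
Log2 value (y axis) of the 9 major LHCII genes on each of the 6 lines (x axis), MYBPAR lines left and empty vector lines right of the dotted line, 1 array per line. LHCB1.3 lies between 14.65 and 14.77 on every line, while LHCB1.1 and the LHCB2 genes have their lowest value, by a wide gap, in PAR9-2.

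The minor LHCB genes split. LHCB4 encodes CP29, an inner antenna protein of photosystem II, and has 3 gene copies, which differed from each other in how PAR9-2 deviated. LHCB4.2 (AT3G08940) had 14.09 in PAR9-2, against 15.09 in PAR18-2, 15.20 in PAR36-4 and 14.95, 15.12 and 15.08 in the empty vector lines, 2.01-fold lower. Its other array feature lay 1.12 below the other lines in PAR9-2, so both features placed that line lowest. LHCB4.1 lay 0.14 above the other lines.

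LHCB4.3 (AT2G40100) went the other way. It had 11.97 in PAR9-2, 11.29 in PAR36-4 and 10.49 in PAR18-2, against 10.04, 10.11 and 10.69 in Cont1-1, Cont2-3 and Cont5-1. PAR9-2 was 2.80-fold higher than the median of the other lines, and the groups overlapped because PAR18-2 lay below Cont5-1. The means were 11.25 ± 0.74 in MYBPAR and 10.28 ± 0.36 in empty vector lines (SD, n = 3 each). The difference was 0.97, with a 95% interval from 0.02 to 1.91 and an adjusted p of 0.915 in limma. Without PAR9-2 it was 0.61 with an interval from -0.21 to 1.43.

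LHCB5 (AT4G10340), which encodes CP26, had the smallest range of all 49 loci, 0.08. Its values were 14.78, 14.82 and 14.84 in PAR18-2, PAR9-2 and PAR36-4, against 14.79, 14.84 and 14.86 in the empty vector lines. LHCB6, which encodes CP24, lay 0.63 below the other lines in PAR9-2. LHCB7 (AT1G76570), a less studied relative, had 10.93 in PAR9-2, against 11.76 in PAR18-2, 11.52 in PAR36-4 and 11.61, 11.76 and 11.96 in the empty vector lines, a deviation of -0.83.

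By the brightest feature of each locus, the LHCA genes of the photosystem I antenna varied little. By that feature, their ranges over the 6 lines lay between 0.10 for LHCA3 and 0.52 for LHCA1. None was then more than 1 from the other lines in any line. A dimmer feature of LHCA1 deviated by -3.03 in PAR9-2 and is described below. LHCA1 (AT3G54890) had 14.47 in PAR9-2, against 14.84 in PAR18-2, 14.90 in PAR36-4 and 14.90, 14.87 and 14.99 in the empty vector lines. LHCA3 (AT1G61520) had 14.83 in PAR9-2, against 14.87 in PAR18-2, 14.93 in PAR36-4 and 14.84, 14.92 and 14.92 in the empty vector lines. LHCA2 and LHCA4 lay 0.32 and 0.36 below the other lines in PAR9-2, whereas LHCA5 and LHCA6, which encode less abundant forms, lay 0.04 and 0.17 above.

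LHCA6 (AT1G19150) was 1 of the 2 loci whose groups did not overlap. It had 14.02, 14.07 and 13.92 in the MYBPAR lines PAR18-2, PAR9-2 and PAR36-4, against 13.90, 13.83 and 13.89 in the empty vector lines. The difference of 0.13 had an SE of 0.10 and an adjusted p of 0.915 in limma.

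LHCA1 had 4 features, which differed in PAR9-2, a point chosen after their values were seen. In PAR9-2, 3 bright features lay between 0.43 and 0.48 below the other lines. The fourth had 10.51 in PAR9-2, against 13.59 in PAR18-2, 13.71 in PAR36-4 and 12.54, 13.43 and 13.53 in the empty vector lines, 8.15-fold lower. What each feature of a locus stands for is not stated in the sources used here. LHCA3 also had a dimmer feature with a larger deviation in PAR9-2, -0.69, against -0.09 for the bright one. With the mean over the features of a locus, the deviation in PAR9-2 was -1.06 for LHCA1 and -0.39 for LHCA3, and 8 of 49 loci lay more than 1 below.

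**Figure D4:**
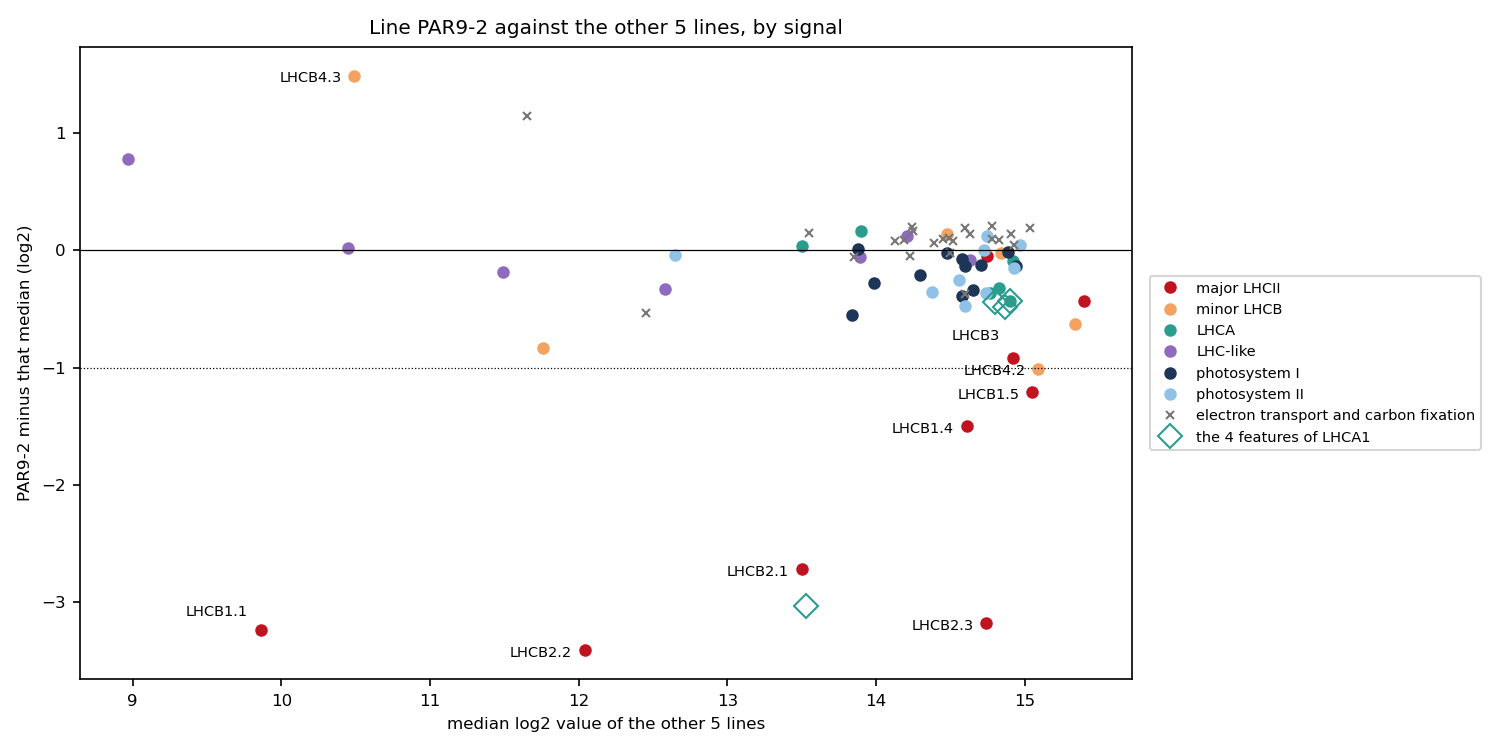
PAR9-2 minus the median of the other 5 lines (y axis, log2) against that median (x axis, log2) for the 49 genes coloured by role, for electron transport and carbon fixation genes (crosses) and for the 4 features of LHCA1 (diamonds), with a dotted line at -1. Among genes with a median of 14.6 or above, 4 of 25 lie below the dotted line, and among the dimmer ones 3 of 24.

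Signal height was set beside the deviations, with the 49 loci split at their median signal of 14.6. Of the 25 loci at or above it in the other lines, 4 lay more than 1 below in PAR9-2, and of the 24 dimmer loci, 3 did. LHCB1.3 and LHCB2.3 had medians of 14.75 and 14.74 in the other lines and deviated by -0.05 and -3.18 in PAR9-2. The other loci more than 2 below had lower medians, 9.86 for LHCB1.1, 13.50 for LHCB2.1 and 12.04 for LHCB2.2. In PAR9-2 the dimmest features of LHCA1 and LHCA3 deviated by -3.03 and -0.69, and that of PSBS by 0.8. The part of signal height in the deviations was not tested.

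LHC-like proteins are relatives of the antenna proteins that act in photoprotection or in handling pigments. ELIP2 (AT4G14690), an early light-induced protein gene, had 9.75 in PAR9-2, 8.97 in PAR18-2 and 9.42 in PAR36-4, against 8.64, 8.97 and 9.88 in Cont1-1, Cont2-3 and Cont5-1. Its range of 1.24 did not depend on PAR9-2, since Cont5-1 was highest and Cont1-1 lowest. LIL3:1 (AT4G17600), whose protein helps to stabilise enzymes of chlorophyll synthesis, had the smallest range of this group, with 13.77, 13.83 and 13.89 in PAR18-2, PAR9-2 and PAR36-4, against 13.83, 13.93 and 13.92 in the empty vector lines.

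Cont5-1 had the highest value of the 6 lines for 5 of the 7 LHC-like genes, namely ELIP1, ELIP2, PSBS, OHP1 and OHP2, and a median deviation of 0.44 in that group. Over all 49 loci Cont5-1 and PAR36-4 each held the highest value for 15, or 30.6%, where 17.6% and 16.3% of all loci had theirs in those lines. PSBS, the photosystem II protein needed for rapid heat dissipation, had a bright feature with a difference of -0.07 between the groups. Its dim second feature had 7.96, 8.76 and 9.04 in PAR18-2, PAR9-2 and PAR36-4, against 7.40, 7.49 and 8.02 in the empty vector lines. The difference for that feature was 0.95, with an unadjusted p of 0.0223 and an adjusted p of 0.915 in limma.

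Photosystem I subunits encoded in the nucleus dock ferredoxin, plastocyanin and the antenna. All 12 kept ranges between 0.11 and 0.67 over the 6 lines, and PAR9-2 had the lowest value for 8. The narrowest, PSAG (AT1G55670), had 14.95, 14.88 and 14.90 in PAR18-2, PAR9-2 and PAR36-4, against 14.89, 14.84 and 14.88 in the empty vector lines. The widest, PSAD2 (AT1G03130), had 13.29 in PAR9-2, against 13.84 in PAR18-2, 13.96 in PAR36-4 and 13.67, 13.83 and 13.91 in the empty vector lines. PSAD2 and its paralog PSAD1 both encode the ferredoxin-docking subunit, and PSAD1 deviated by only -0.07 in PAR9-2. The other deviations in PAR9-2 ran from -0.39 for PSAH2 to 0.01 for PSAE2.

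The photosystem II genes measured here encode the oxygen-evolving complex (PSBO, PSBP, PSBQ) and small membrane subunits. PSBQ2 (AT4G05180) had the widest range, with 14.13 in PAR9-2, against 14.59 in PAR18-2, 14.73 in PAR36-4 and 14.36, 14.62 and 14.60 in the empty vector lines. Its paralog PSBQ1 (AT4G21280) had the narrowest, with 14.72, 14.87 and 14.86 in PAR18-2, PAR9-2 and PAR36-4, against 14.74, 14.75 and 14.81 in the empty vector lines. PAR9-2 was thus lowest of the 6 lines for PSBQ2. For PSBQ1 it was level with PAR36-4, at 14.87 against 14.86. PSBO1 and PSBO2 deviated by -0.15 and -0.25, PSBP1 by -0.36 and PSBW by -0.35, while PSBR, PSBX and PSBY stayed within 0.05 of the other lines.

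The median deviation in PAR9-2 by role was -1.50 for major LHCII, -0.32 for minor LHCB, -0.20 for LHCA, -0.06 for LHC-like, -0.13 for photosystem I and -0.15 for photosystem II genes. Of the 30 loci with their lowest value in PAR9-2, 15 were LHCB or LHCA genes and 13 were photosystem subunit genes. The next lowest line for the 7 loci far below in PAR9-2 was Cont1-1 for 3, PAR36-4 for 2, PAR18-2 for 1 and Cont5-1 for 1. Among the 5 lines other than PAR9-2, a range over 1 was seen only for LHCB1.1, LHCB4.3 and ELIP2, and a range over 0.5 for 8 of 49.

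Other genes of photosynthesis were read from lists. All the lists were chosen with earlier results of these data known, so their counts beside the share of all loci are descriptions only. None of these lists, nor those of clock genes and organ markers, had a gene that passed the adjusted threshold in limma in either direction. At an unadjusted p under 0.05 in limma there were 2 of 89 genes, or 2.25%, where 2.41% of all features were higher. They were the root marker WOX5 and the floral marker SEP1, both higher in the MYBPAR lines. WOX5 had values between 5.50 and 6.14 on the 6 lines, all among the dim features below 7.08. Electron transport genes differed little, with 0 of 11 more than 1 from the other lines in PAR9-2. Their largest deviations there were -0.53 for PGR5, -0.37 for PGRL1A, both of cyclic electron flow, and 0.21 for the ferredoxin gene FD2.

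Carbon fixation genes lay on the other side of 0. All 12 had a deviation above 0 in PAR9-2, between 0.05 and 1.15, and 10 had their highest value of the 6 lines there, where 23.5% of all loci did. RBCS1B, a small subunit gene of Rubisco, had 12.80 in PAR9-2, against 11.32 in PAR18-2, 11.65 in PAR36-4 and 11.73, 11.14 and 11.75 in the empty vector lines, 2.22-fold higher in PAR9-2. The carbonic anhydrase gene CA1 and RBCS3B deviated by 0.20 and 0.19. RBCS1A and RCA, which with the antenna genes served as leaf markers, were bright on every line.

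Among 16 chlorophyll synthesis genes, 2 lay more than 1 below the other lines in PAR9-2, where 2.27% of all loci did, and 10 had their lowest value there, where 21.4% of all loci did. PORA, a light-dependent protochlorophyllide oxidoreductase gene, had 11.74 in PAR9-2, against 13.65 in PAR18-2, 14.06 in PAR36-4 and 13.41, 13.75 and 13.16 in the empty vector lines, 3.77-fold lower. CAO, whose enzyme makes the chlorophyll b that antenna proteins bind, had 13.05 in PAR9-2, against 14.31 in both PAR18-2 and PAR36-4 and 14.14, 14.39 and 14.45 in the empty vector lines, 2.40-fold lower. GUN4, which stimulates magnesium chelatase, deviated by -0.71.

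Of 11 regulator genes, 3 lay more than 1 below the other lines in PAR9-2, beside the same 2.27% of all loci. GLK2, a transcriptional activator of antenna and chlorophyll genes, had 10.05 in PAR9-2, against 12.30 in PAR18-2, 12.12 in PAR36-4 and 11.68, 12.23 and 12.30 in the empty vector lines, 4.51-fold lower. Its paralog GLK1 deviated by -0.29. PIF4 and PIF5, phytochrome-interacting factor genes, were 4.32-fold and 5.30-fold lower in PAR9-2 than the median of the other lines. The smallest p in this list belonged to GUN1, a chloroplast signalling gene, at 0.116 with a difference of 0.18.

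Genes for antenna insertion and phosphorylation numbered 8, and none was more than 1 from the other lines in PAR9-2. The largest deviations there were -0.58 for STN7, the kinase that phosphorylates LHCII, 0.31 for the kinase STN8 and -0.21 for CPSRP43, which escorts antenna proteins to the membrane. Chlorophyll breakdown genes numbered 7, with deviations from -0.39 for PPH and -0.38 for SGR2 to 0.84 for NYC1, whose enzyme reduces chlorophyll b.

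The largest deviations in PAR9-2 among all these lists were those of circadian clock genes. CCA1, a morning-phased clock gene, had 7.54 in PAR9-2, against 12.90 in PAR18-2, 12.35 in PAR36-4 and 11.62, 12.93 and 13.50 in the empty vector lines, 40.9-fold lower. LHY, its close relative, had 7.53 in PAR9-2, against 12.05 in PAR18-2, 11.07 in PAR36-4 and 9.83, 11.52 and 13.04 in the empty vector lines, 15.9-fold lower. PRR9 was 37.1-fold and PRR7 2.37-fold lower in PAR9-2. All 4 morning genes thus lay more than 1 below the other lines in PAR9-2, where 2.27% of all loci did. The clock genes too were listed with earlier results of these data known.

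Of the 4 evening genes, 3 lay more than 1 above the median of the other lines in PAR9-2, where 1.81% of all loci did. Cont1-1 lay that far above for ELF4 and LUX, where 1.31% of all loci did, and 0.95 above for TOC1. ELF4 had 13.20 in PAR9-2, 10.95 in PAR18-2 and 11.38 in PAR36-4, against 12.89, 11.34 and 8.43 in Cont1-1, Cont2-3 and Cont5-1. LUX had 11.23 and TOC1 13.72 in PAR9-2, against 11.58 and 13.64 in Cont1-1, so LUX was highest in Cont1-1. The median deviation of the 4 evening genes was 1.1 in PAR9-2 and 1.23 in Cont1-1, and GI deviated by -1.04 in PAR9-2. Cont1-1 and Cont5-1 lay at opposite ends of the empty vector lines for CCA1, LHY and ELF4. Their CCA1 deviations were -1.27 and 1.15, against -5.36 in PAR9-2. The part of the clock genes and of the time of harvest in the antenna differences was not tested.

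**Figure D5:**
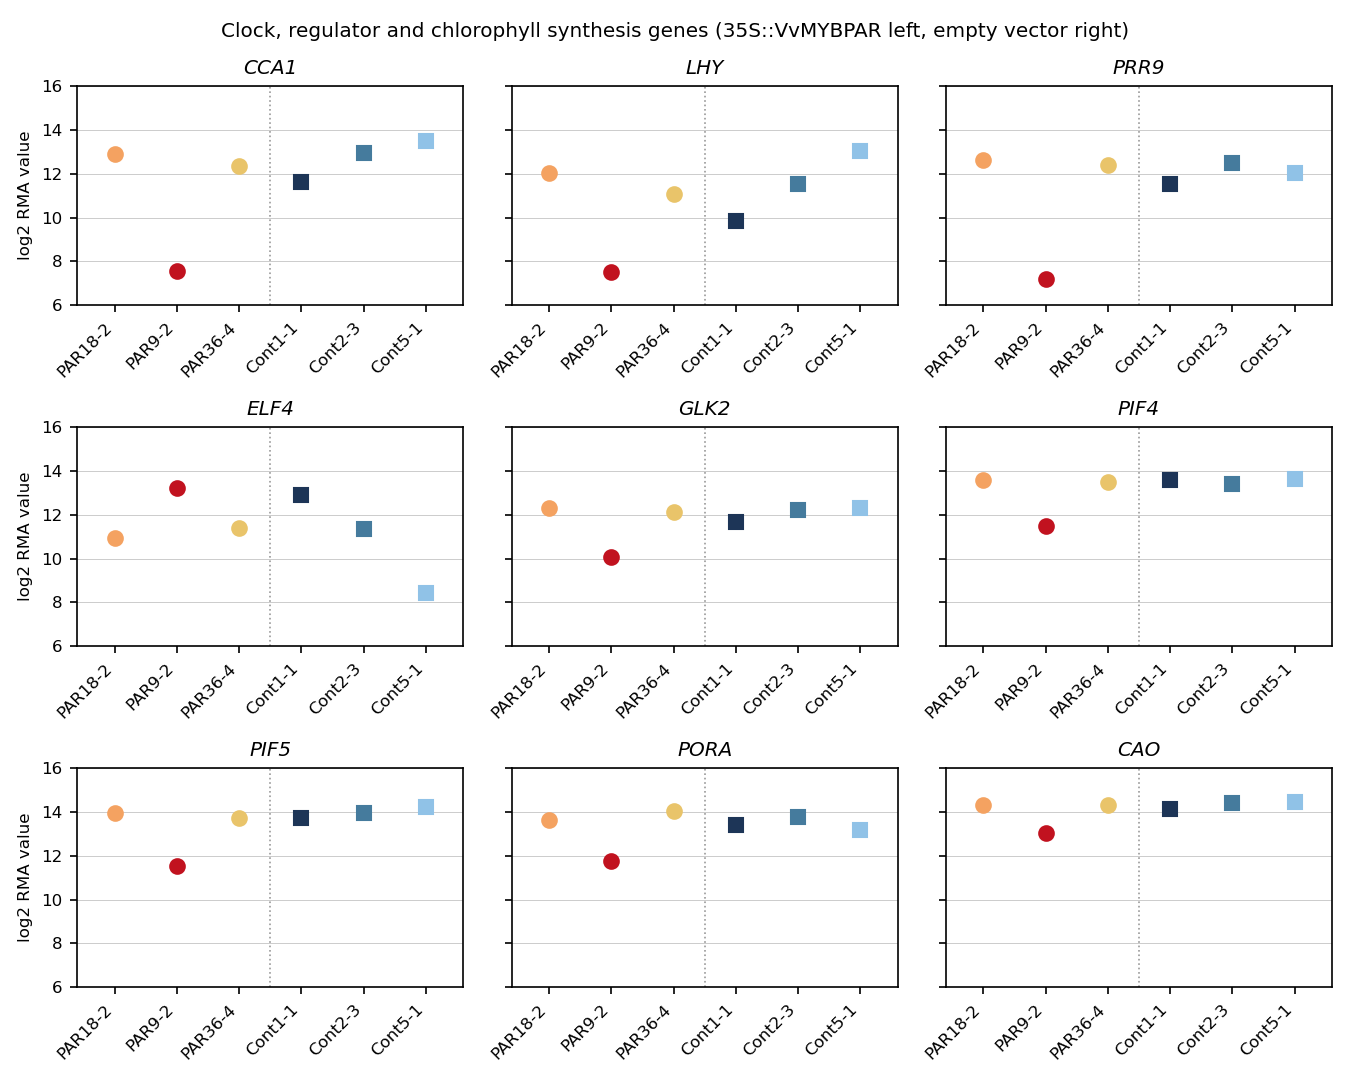
Log2 value (y axis) of 4 clock genes, 3 regulator genes and 2 chlorophyll synthesis genes on each line (x axis), MYBPAR lines left and empty vector lines right of the dotted line. PAR9-2 is lowest for all of them but ELF4, and Cont1-1 and Cont5-1 lie at opposite ends of the empty vector lines for CCA1, LHY and ELF4.

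Markers of other organs were read on the same arrays, since a whole plant can hold differing shares of them. The mean log2 value over 7 floral organ identity genes was 10.24 in PAR9-2, 9.48 in PAR18-2 and 10.34 in PAR36-4, against 8.55, 10.02 and 9.34 in Cont1-1, Cont2-3 and Cont5-1. The group difference of these 7 genes lay between 0.47 and 0.95, with none past the adjusted threshold in limma. The largest deviations in PAR9-2 were 0.99 for AG, 0.89 for AP1 and 0.83 for SEP3. The highest mean was that of PAR36-4 and the lowest that of Cont1-1. In the 5 root markers the mean was 9.47 in PAR9-2, 9.39 in PAR18-2 and 9.53 in PAR36-4, against 9.26, 9.25 and 9.12 in the empty vector lines. The largest root marker deviations in PAR9-2 were 0.43 for WOX5, which lay under 7.08 on every line, 0.23 for PLT2 and -0.09 for SHR. The mean of 4 seed markers was 6.20 in PAR9-2, 5.20 in PAR18-2 and 5.48 in PAR36-4, against 5.29, 5.67 and 5.31 in the empty vector lines, all under 7.08. CRU3, a seed storage protein gene, had 7.07 in PAR9-2, 4.3 in PAR18-2 and 4.71 in PAR36-4, against 5.63, 4.92 and 4.28 in the empty vector lines. All its values lay among the dim features, so no fold is given. CRA1, OLEO2 and OLEO1 deviated by 0.84, -0.51 and 0.49 in PAR9-2. No marker had a value of 0. The part of organ makeup in the antenna differences was not tested.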

How the data were processed

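The deposited intensity of each feature is a linear RMA value (the method is named in the submitters' processing notes). The version of RMA and the probe annotation are not stated in the sources used here. The log2 values of the deposited series table equal log2 of these intensities within 1.66e-06. RMA usually includes quantile normalization, under which a shift of most transcripts one way would not be seen. All 6 arrays lay on 1 slide by their names, so there was no slide batch to block. Culture and harvest cannot be told apart from line.

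Log2 intensities were fitted by limma (version 3.58.1, under R 4.3.3), using lmFit and plain eBayes with no filter, over all 6 samples, with Benjamini-Hochberg adjustment over 37118 features. The fit was tested on simulated data whose noise had the same spread on every line. That test therefore does not cover a line that stands apart, as PAR9-2 did. The alternatives changed the normalization, offset, dim features, variance model, block, samples and distance. P-values measure the spread between lines of separate cultures. The number of arrays limits the precision. All 138 listed loci matched a RefSeq locus tag (TAIR10.1), used for names and gene order only. The members and lists were chosen with earlier results of these data known. Genes named are those with a range over 1, the narrowest and widest of each role, the 6 smallest p, and from each list the 3 largest PAR9-2 deviations and the smallest p. Others are given by deviation only. Second features of LHCA1, LHCA3, LHCB4.2 and PSBS were chosen after values were seen. Promoter, protein and probe sequences were not used here.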

Additional observations from a re-analysis of the deposited data

How the results depend on the processing

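None of the 49 genes was called in limma under any of the 15 alternatives, and the median difference moved by less than the spread between lines under all 12 run for it, between -0.096 and 0.030 when each line was left out. The count of genes low in PAR9-2 was 7 in each run without another line, 6 after quantile normalization once more (LHCB4.2 at -0.98), 8 with the mean over features (LHCA1 at -1.06), 11 for a distance of 0.5 (9.95% of all loci) and 4 for a distance of 2 (0.282%). The median deviation in PAR9-2 was -0.243 against the mean of the other 2 MYBPAR lines, and ran from -0.243 to -0.172 when another line was left out, where -0.243 came without Cont1-1 and without Cont2-3. It moved by more than the spread of this median between the other lines, 0.061, under 3 alternatives and by less under 9. With the replicate block 0 genes were called. Same-numbered samples had deviations that correlated at 0.295, -0.0579 and 0.239. For samples with different numbers the correlations ran from -0.482 to 0.36, so these values do not settle whether the numbers mark pairs.

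Of 546 repeats for single genes, 15 reversed the direction, none of a called gene. Leaving out each line in turn, MYBPAR minus empty vector ran from -0.67 to 0.09 for LHCB1.4, -1.42 to 0.02 for LHCB2.1, -1.73 to 0.05 for LHCB2.2, -1.47 to 0.13 for LHCB2.3, -0.50 to 0.01 for LHCB3, -0.46 to 0.10 for LHCB4.2, -0.24 to 0.10 for PSAD2, -0.17 to 0.13 for PSBQ2 and -0.04 to 0.01 for LHCA3, each above 0 without PAR9-2. It ran from -0.04 to 0.01 for LHCB1.3 and from -0.04 to 0.58 for ELIP2. The mean over features gave 0.04 for LHCA3, and moved the PAR9-2 deviation of LHCA1 to -1.06 and of LHCA3 to -0.39. The cause was not tested. No moderation, trend with robust variance and the block were run for the group difference only. The highest signals and the single array per line limit these data.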
